A study of Mus musculus with 5 samples.

Results

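The genes described here are the Hox genes, the homeobox transcription factors that lie in 4 clusters in the mouse genome. They were selected by symbol, as every nearest gene named Hoxa, Hoxb, Hoxc or Hoxd with a number in the authors' annotation tables, together with any other peak between the outermost Hox genes of a cluster. RefSeq lists 39 such genes, and 5 of them, Hoxa4, Hoxa13, Hoxc12, Hoxd8 and Hoxd11, were nearest to a peak, among 12195 genes named in the tables. The other 34 Hox genes had no peak of any list. Inside the clusters 0 peaks were assigned to a gene outside the family, so the members are 7 of the 19586 peaks of the Nr1d1 ChIP and 5 of the 17111 peaks of the IgG mock.

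Hox proteins set the identity of body segments, limbs and genitalia along the head-to-tail axis of the embryo. The order of the genes on the chromosome follows the place where each is used, from anterior genes with low numbers to posterior genes with high numbers. In differentiated cells most Hox genes are kept silent by Polycomb complexes, which modify histones over whole clusters, while trithorax complexes maintain active ones. Nr1d1 (REV-ERBα) is a nuclear receptor and repressor of the circadian clock.

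Chromatin was taken from Th1 cells, made in culture from naive CD4 T cells of C57BL/6 wild-type mice aged 4 to 6 weeks. The cells were stimulated by antibodies to CD3 and CD28 with IL-12, IFNγ and anti-IL4 for 3 to 4 days. The series had 3 libraries pulled down with an Nr1d1 antibody, 1 IgG mock and 1 input, all from the same kind of cells, with no perturbation of Nr1d1. The lists hold 1 value per peak for a whole antibody and no read counts, so no error between libraries could be given, the depth is unknown, and every count below is a description of these lists without a test. A further list holds the 14471 ChIP peaks that overlap no IgG peak, called ChIP-specific below. The FDR of a peak (false discovery rate) is the authors' own value, under 0.05 in every list. The files hold no expression values, so neither the cell label nor the activity of the Hox genes could be checked.

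The ChIP-specific peak with the lowest FDR in the family lay over the start of Hoxa13, the most posterior gene of the HoxA cluster and a regulator of distal limb and genital development. It spanned chr6:52260876-52261149 (mm10), was 275 bp long and was annotated as promoter, with its centre at -132 bp relative to the transcription start site (TSS). Its FDR was printed as 0, as was that of 1762 of the 19586 ChIP peaks and of 162 of the 14471 ChIP-specific ones. No other Hox peak of the ChIP list had an FDR printed as 0.

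The peak covered 255 bases of the RefSeq promoter window of Hoxa13, which runs from 250 bases before the start of the gene to 50 after it (chr6:52260831-52261130, minus strand, GRCm38.p6). The window is shown because it is the only one of the 24 Hox windows in the RefSeq table that overlapped a peak, with the bases under the ChIP peak in capitals.
Hoxa13: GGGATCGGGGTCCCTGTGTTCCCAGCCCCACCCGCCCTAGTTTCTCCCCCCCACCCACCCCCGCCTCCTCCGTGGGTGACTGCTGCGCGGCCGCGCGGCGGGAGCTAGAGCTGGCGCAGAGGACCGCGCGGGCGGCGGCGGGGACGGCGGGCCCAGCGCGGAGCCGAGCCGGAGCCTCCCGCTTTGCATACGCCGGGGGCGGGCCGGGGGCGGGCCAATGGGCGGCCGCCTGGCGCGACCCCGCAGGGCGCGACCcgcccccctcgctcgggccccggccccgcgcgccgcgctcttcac
The window had a GC content of 81.0%, higher than or equal to that of 99.3% of all promoter windows, and it held 45 CG dinucleotides, 36 of them under the peak. The GC box GGGCGG, a motif of many CpG-rich promoters, occurred 6 times on either strand, 5 of them entirely under the peak, and the CCAAT box (ATTGG or its complement) occurred once. Neither of the core motifs AGGTCA and GGGTCA, to which REV-ERB and ROR receptors bind, was in the window on either strand. A further 19 bases of the peak lay outside the window and were not searched.

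Hoxa13 also had a peak further into the gene, and that site was shared with the mock. The ChIP peak at chr6:52260426-52260599 (175 bp, FDR 0.00887) lay 290 bp downstream of a second annotated start, and the IgG peak at 52260451 to 52260649 (200 bp, FDR 0.000934) covered 149 bp of it. The ChIP-specific peak upstream was 227 bp from that IgG peak. Within the 162 such peaks of FDR 0, the one at Hoxa13 was the 1 that had an IgG peak within 500 bp (0.617%, Wilson 95% interval 0.109 to 3.41). Among ChIP-specific peaks of any FDR, 233 did (1.61%). Whether signal from the neighbouring site plays a part in the upstream peak was not tested.

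Hoxa4, a central gene of the same cluster that acts in the cervical region, had a peak in the ChIP list alone. It spanned chr6:52191651-52191774, was 125 bp long and centred 41 bp downstream of the annotated TSS. Its FDR of 0.0119 was close to the median of all ChIP peaks, 0.0111, and 90.9% of ChIP peaks were as long or longer. In RefSeq the peak also fell inside the long locus of Hoxa3 and a predicted noncoding gene, so the list cannot tell these genes apart. The nearest IgG peak was 68677 bp away, at Hoxa13.

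**Figure D1:**
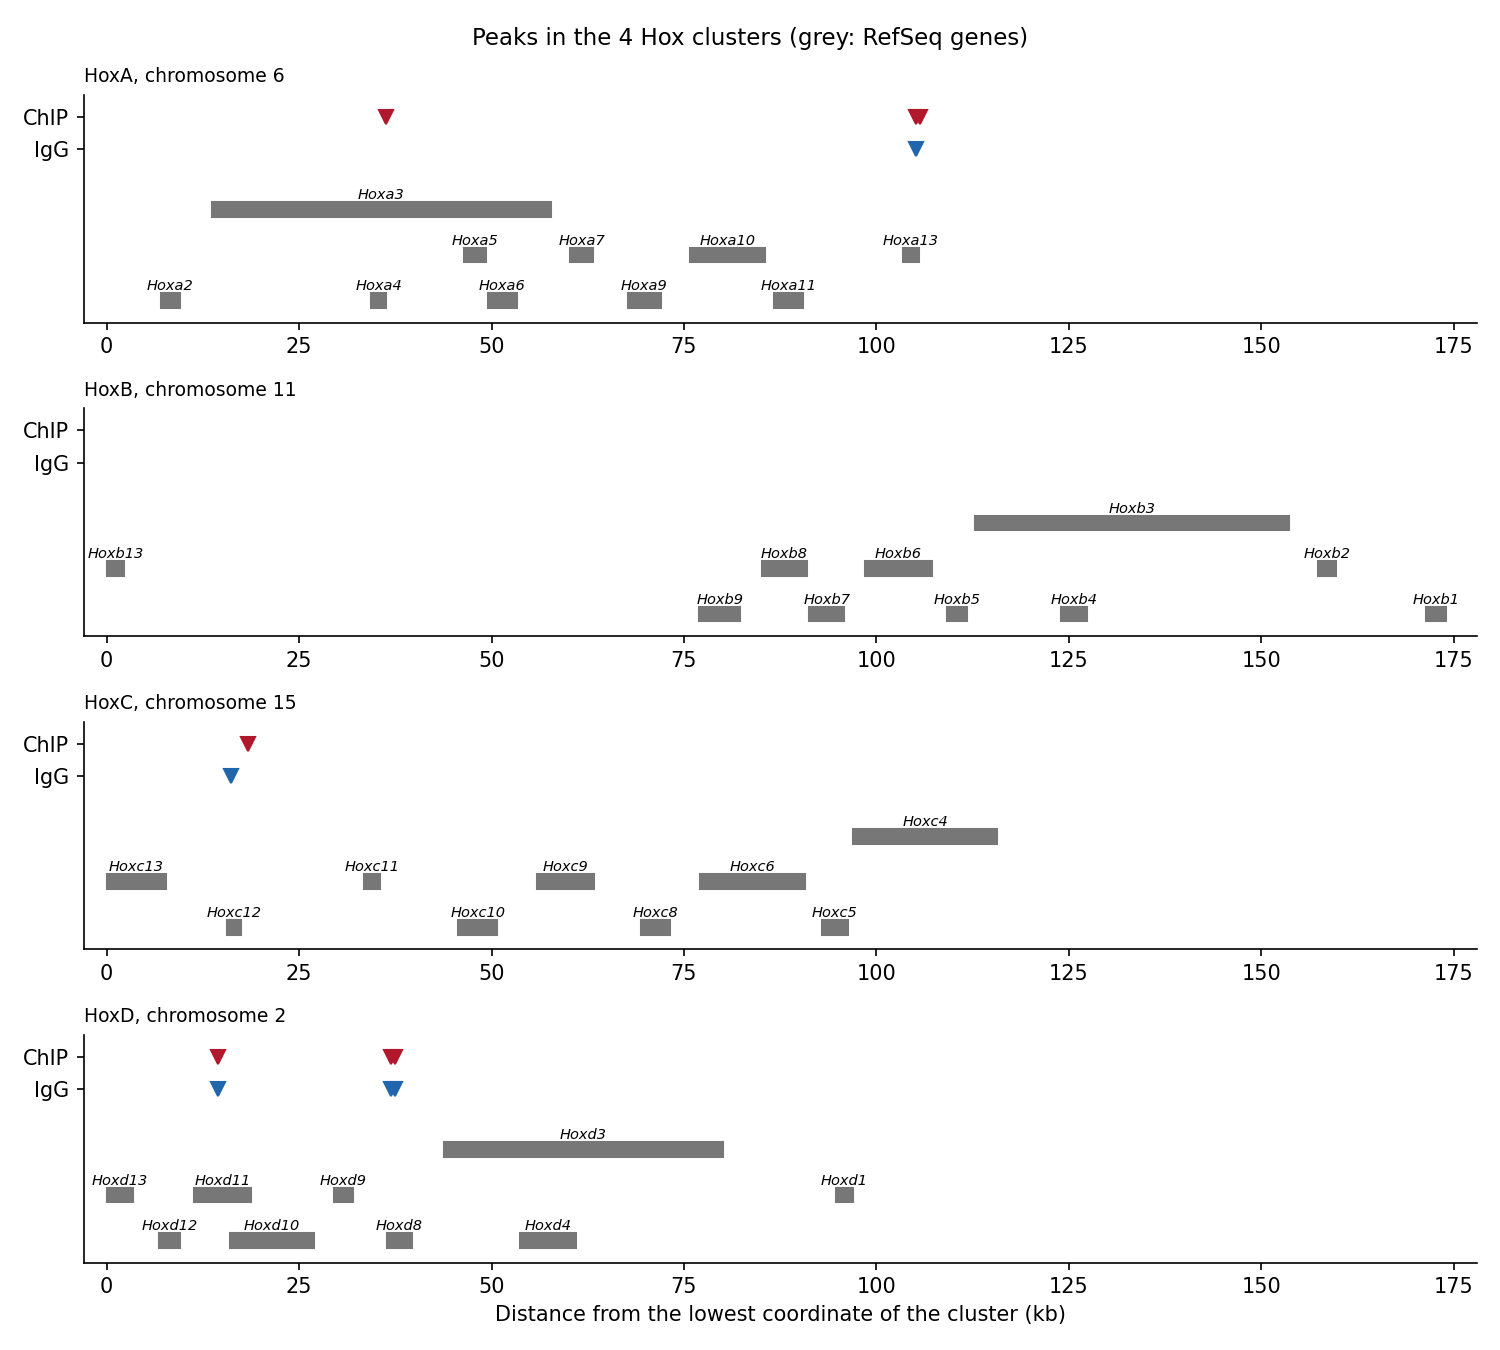
Map of the 4 Hox clusters, with the distance from the lowest coordinate of each cluster in kb on the x axis, RefSeq genes as grey boxes (all but 1 of HoxA) and peak centres as triangles (ChIP upper row, IgG lower row). HoxB has 0 peaks of either list, each HoxD triangle of the ChIP has an IgG triangle under it, and Hoxa4 has a ChIP triangle alone.

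In the HoxD cluster every ChIP peak lay over an IgG peak. Hoxd8, a central gene, had 2 ChIP peaks and 2 IgG peaks, the first pair across its annotated start and the second in an exon. At the start the ChIP peak (chr2:74705076-74705199, 125 bp) had an FDR of 0.0242 and the IgG peak (chr2:74705051-74705199, 150 bp) one of 0.00679. In the exon the ChIP peak (chr2:74705576-74705799) and the IgG peak (chr2:74705601-74705824) were both 225 bp long, with FDRs of 0.0133 and 0.0139. The first ChIP peak was covered entirely by its IgG partner, and the second over 88.8% of its length. Both sites also fall inside Gm38462, a noncoding gene that RefSeq places over Hoxd8.

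Hoxd11, a posterior gene of forearm and kidney development, had 1 shared site. The ChIP peak (chr2:74682651-74682824, 175 bp, FDR 0.00880) lay wholly inside a longer IgG peak (chr2:74682601-74682849, 250 bp) whose FDR was printed as 0. Both were annotated as promoter, at 414 and 402 bp downstream of the start. That start is an internal one, and the first RefSeq start of Hoxd11 lies at -2765 bp from it.

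Hoxc12, a posterior gene of the HoxC cluster, had 1 peak of each kind at different places. The IgG peak (chr15:102937251-102937424, 175 bp, FDR 0.0151) lay in an exon, 580 bp downstream of the start. The ChIP-specific peak (chr15:102939401-102939499, 100 bp, FDR 0.0190) was annotated as a transcription termination site and lay 792 bp beyond the RefSeq end of the gene, 1977 bp from the IgG peak. At 100 bp it had the shortest length that occurs in the lists.

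**Figure D2:**
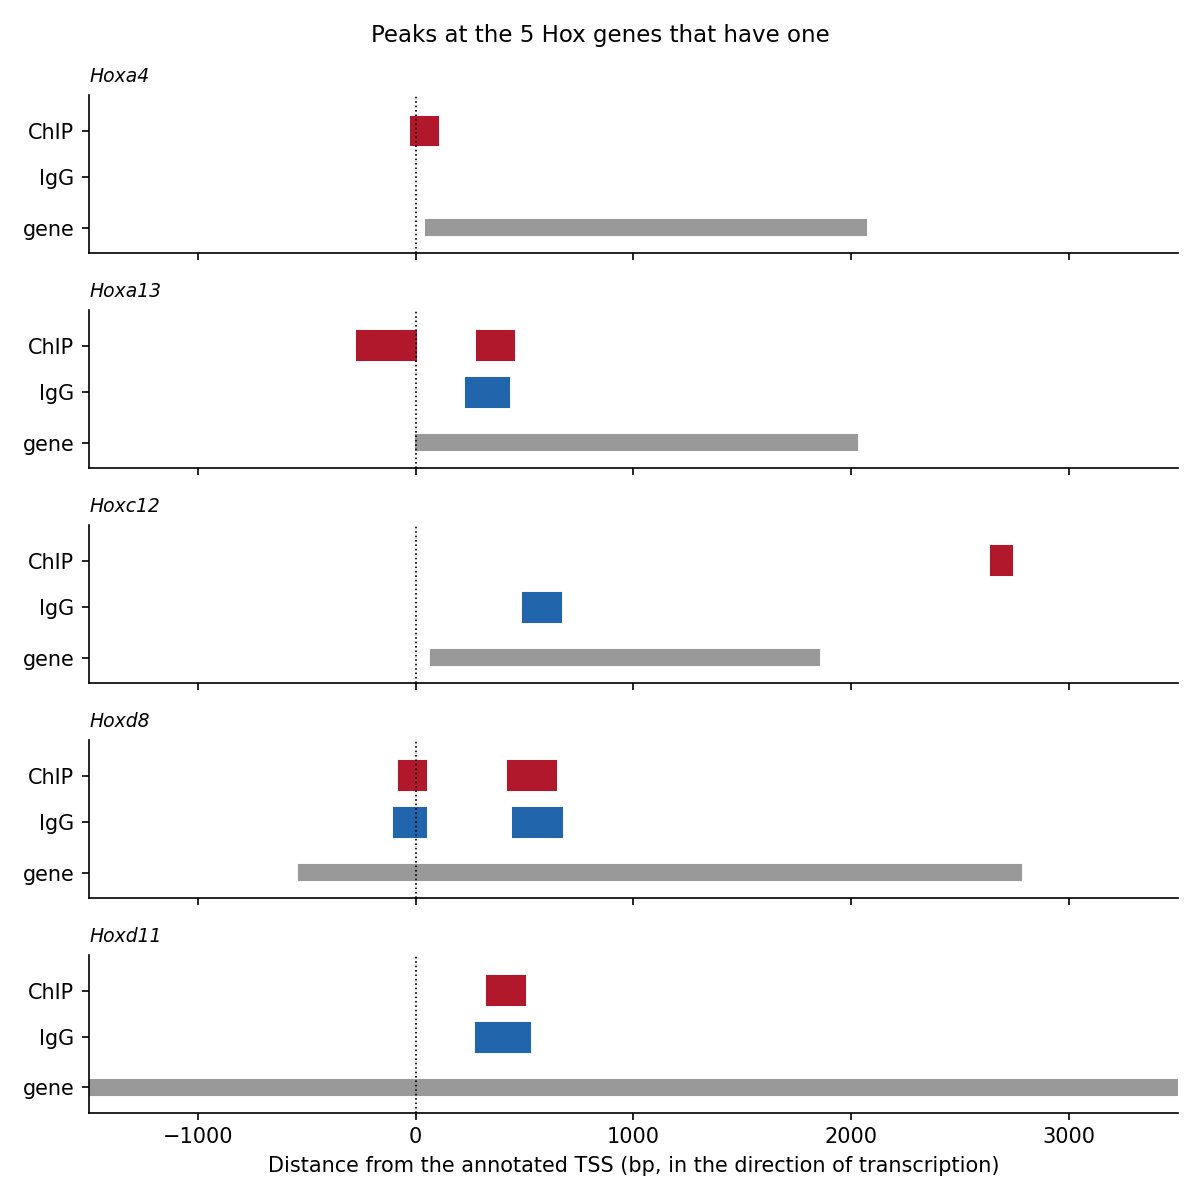
Peaks at the 5 Hox genes that have one, drawn to scale against the distance in bp from the start of the annotated transcript, in the direction of transcription (for Hoxa13 the transcript of the upstream peak). Red bars are ChIP peaks, blue bars IgG peaks and grey bars the RefSeq gene, which at Hoxd11 runs past both edges; Hoxd8 and Hoxd11 have a blue bar at each red one, while the upstream bar of Hoxa13 and the bars of Hoxa4 and Hoxc12 stand apart.

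Over the family, 4 of the 7 ChIP peaks shared at least 1 bp with an IgG peak (57.1%, Wilson 95% interval 25 to 84.2), beside 26.1% of all ChIP peaks. Most of these Hox peaks were promoter peaks, of which 3 of 5 overlapped an IgG peak (60.0%, 23.1 to 88.2), beside 36.0% of all ChIP promoter peaks. Of the 5 IgG peaks 4 overlapped a ChIP peak (80.0%, 37.6 to 96.4), beside 29.9% of all IgG peaks. The intervals of the ChIP shares include the shares of all such peaks, and that of the IgG share does not. However, 3 of the 5 Hox IgG peaks were promoter peaks, and no share over IgG promoter peaks alone was computed. The IgG comparison is therefore not matched for peak class. All of them treat peaks as independent, which neighbouring peaks are not. Both Hoxd8 sites are among the 4 shared ones, only 376 bp apart in the ChIP list and 401 bp in the IgG list. At 3 of the 4 shared sites, the starts of Hoxd8 and Hoxd11 and the inner site of Hoxa13, the IgG peak had the lower FDR. The same held for 2444 of all 5115 shared ChIP peaks (47.8%), while the ChIP peak had the lower FDR at 29.0% and both were equal at the rest. An FDR was computed within each list, so its size is not a measure of more or less signal between them. The names of both lists set them against the 1 input of the series, and its part in the shared sites was not tested.

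**Figure D3:**
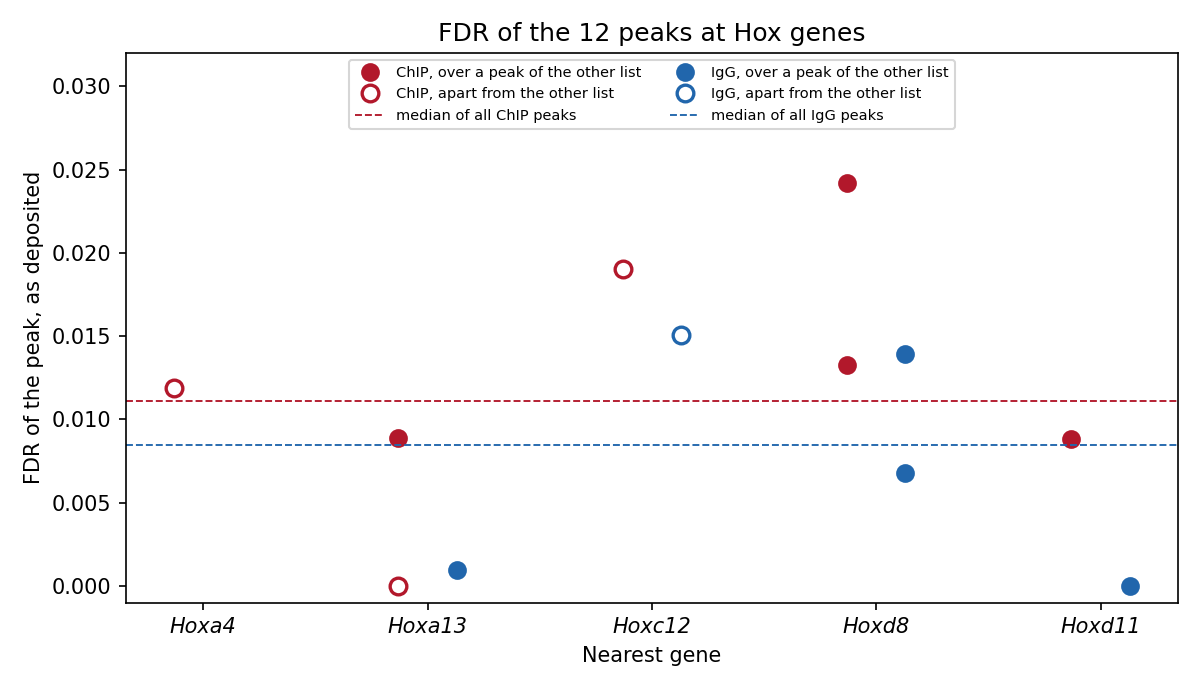
FDR of the 12 Hox peaks as deposited, by nearest gene on the x axis, with ChIP peaks in red and IgG peaks in blue, filled where the peak overlaps one of the other list; dashed lines are the medians of all peaks of each list, 0.0111 and 0.00845. Open red circles, the 3 ChIP-specific peaks, run from 0 at Hoxa13 to 0.0190 at Hoxc12.

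Counted by genes, the share of the family nearest to a peak was below that of all protein-coding genes in each list when a peak counted for its nearest gene, with intervals that include the latter. A ChIP peak was nearest to 5 of 39 Hox genes (12.8%, Wilson 95% interval 5.60 to 26.7), beside 22.0% of 21883 protein-coding genes. An IgG peak was nearest to 4 (10.3%, 4.06 to 23.6), beside 17.0%. A ChIP-specific peak was nearest to 3, Hoxa13, Hoxa4 and Hoxc12 (7.69%, 2.65 to 20.3), beside 17.5%. Of the 5 genes with a ChIP peak all but Hoxa4 also had an IgG peak, and over protein-coding genes with a ChIP peak 56.6% did. This order depends on how peaks are assigned. When every gene whose body or 5 kb flank touched a peak was counted, 9 Hox genes had a ChIP peak (23.1%, beside 21.6% of protein-coding genes). An IgG peak was then at 7 (17.9%, beside 15.9%), and both shares were close to the background rather than below it. ChIP-specific peaks were then at 4 (10.3%, beside 16.8%). With nearest peaks within 1 kb of a TSS, the shares were numerically above the background in all 3 lists. They were 10.3% beside 6.93% for ChIP, 10.3% beside 5.10% for IgG and 5.13% beside 4.47% for ChIP-specific peaks. These rest on 4, 4 and 2 of 39 genes. The intervals for such counts, 4.06 to 23.6 for 4 genes and 1.42 to 16.9 for 2, include the background shares. The Wilson intervals treat genes as independent, which neighbours in a cluster are not.

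Peaks at Hox genes lay close to starts. The ChIP list had a promoter peak at 4 of 39 Hox genes, Hoxa4, Hoxa13, Hoxd8 and Hoxd11 (10.3%, 4.06 to 23.6), beside 4.20% of protein-coding genes. The IgG list had one at 3, Hoxa13, Hoxd8 and Hoxd11 (7.69%, 2.65 to 20.3), beside 3.20%. ChIP-specific promoter peaks were at 2, Hoxa4 and Hoxa13 (5.13%, 1.42 to 16.9), beside 2.66%. Here too each interval includes the share of all protein-coding genes. Of the 7 ChIP peaks 6 were within 1 kb of a start, and of the 5 IgG peaks all were, beside 10.9% and 9.09% of all annotated peaks of the lists. These backgrounds are not matched for the density of starts. The clusters pack 39 genes into 492.1 kb, while 56.4% of all ChIP peaks and 59.7% of all IgG peaks were intergenic.

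**Figure D4:**
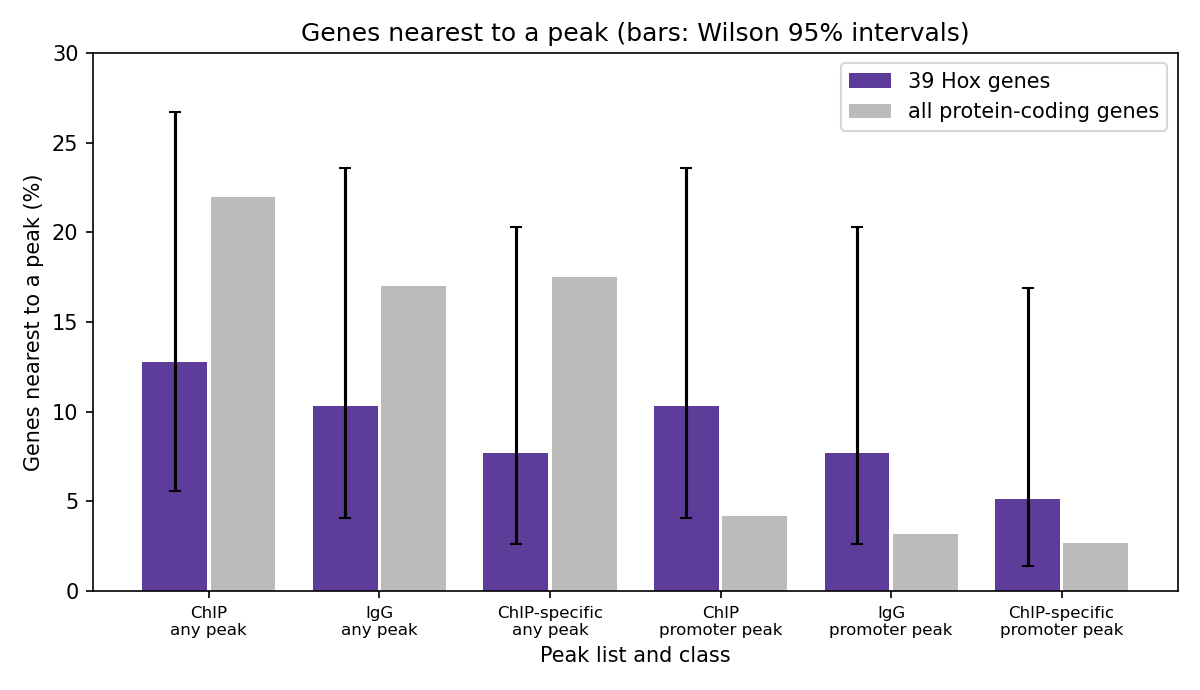
Share of genes nearest to a peak in percent, for the 39 Hox genes (purple, with Wilson 95% intervals) and all 21883 protein-coding genes (grey), by peak list and class on the x axis. For any peak the purple bars are the lower ones, from 7.69 to 12.8% beside 17.0 to 22.0%, and for promoter peaks they are the higher ones, from 5.13 to 10.3% beside 2.66 to 4.20%, with intervals several times wider than the differences between lists.

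The clusters differed in their number of peaks. HoxD held 3 ChIP and 3 IgG peaks in 96.92 kb, HoxA 3 and 1 in 105.5 kb, and HoxC 1 of each in 115.7 kb. HoxB, with 10 genes in 173.9 kb, held 0 peaks of any list, which as a share of its genes allows up to 27.8% (Wilson 95% interval). This includes the 22.0% of protein-coding genes nearest to a ChIP peak. The ChIP intervals of HoxA (5.14 to 47.7), HoxC (1.99 to 43.5) and HoxD (6.32 to 54.7) include it too and overlap each other. The nearest ChIP peak to HoxB lay 56392 bp from Hoxb13, in an intron of Ttll6, and the nearest IgG peak 1018792 bp away. All 4 clusters together held 14.2 ChIP, 10.2 IgG and 6.10 ChIP-specific peaks per Mb, beside 7.19, 6.28 and 5.31 per Mb over the genome, and the Hox values rest on 7, 5 and 3 peaks.

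By position along the axis, 0 of the 8 anterior genes (paralogue groups 1 to 3) were nearest to a peak. Of the 15 central genes (groups 4 to 8) Hoxa4 and Hoxd8 were, and of the 16 posterior genes (groups 9 to 13) Hoxa13, Hoxc12 and Hoxd11. For ChIP peaks these are 0%, 13.3% and 18.8%, with Wilson 95% intervals of 0 to 32.4, 3.74 to 37.9 and 6.59 to 43.0, all of which include the 22.0% of protein-coding genes. The 5 genes belong to 5 different paralogue groups (4, 8, 11, 12 and 13), so no group had a peak in more than 1 cluster. Genes without a peak of their own lay at different distances from one. In HoxD the 7 such genes were 1449 bp (Hoxd10) to 57181 bp (Hoxd1) from a ChIP peak, with a median of 6194 bp. In HoxA the 9 such genes had a median distance of 19572 bp, and the nearest was Hoxa3, at 0 bp because its locus holds the Hoxa4 peak. In HoxC the range was 10587 bp (Hoxc13) to 78598 bp (Hoxc4), and in HoxB 56392 bp (Hoxb13) to 227822 bp (Hoxb1). None of the 15 noncoding RNAs listed for the clusters, among them Hotair, Hottip and the miR-10 and miR-196 genes, was nearest to a peak. For those inside the clusters this repeats that no peak there was assigned to a gene outside the family. RefSeq held 14 of the 15, and the share over all noncoding genes was not computed.

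Promoter windows of 22 of the 39 genes, 24 windows in all, were in the RefSeq table used. Hoxa4 and Hoxc12 have no window there, so their ChIP-specific peaks were neither counted against promoter windows nor searched for motifs. The GC content of the 24 windows ran from 39.7% at Hoxd4 to 81.0% at Hoxa13 with a median of 57.7%, beside 52.7% for all 32851 windows. Of the 24, 12 had a CpG ratio (observed over expected) of at least 0.6, beside 35.8% of all. A ChIP peak overlapped 1 of the 24 (4.17%), beside 2.26% of all windows and 5.20% of those with a CpG ratio of at least 0.6. Hoxd13 had the second highest GC content, 74.3%, and no peak in its window, like most windows with a CpG ratio of at least 0.6. The part of GC content in the Hoxa13 peak was not tested.

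**Figure D5:**
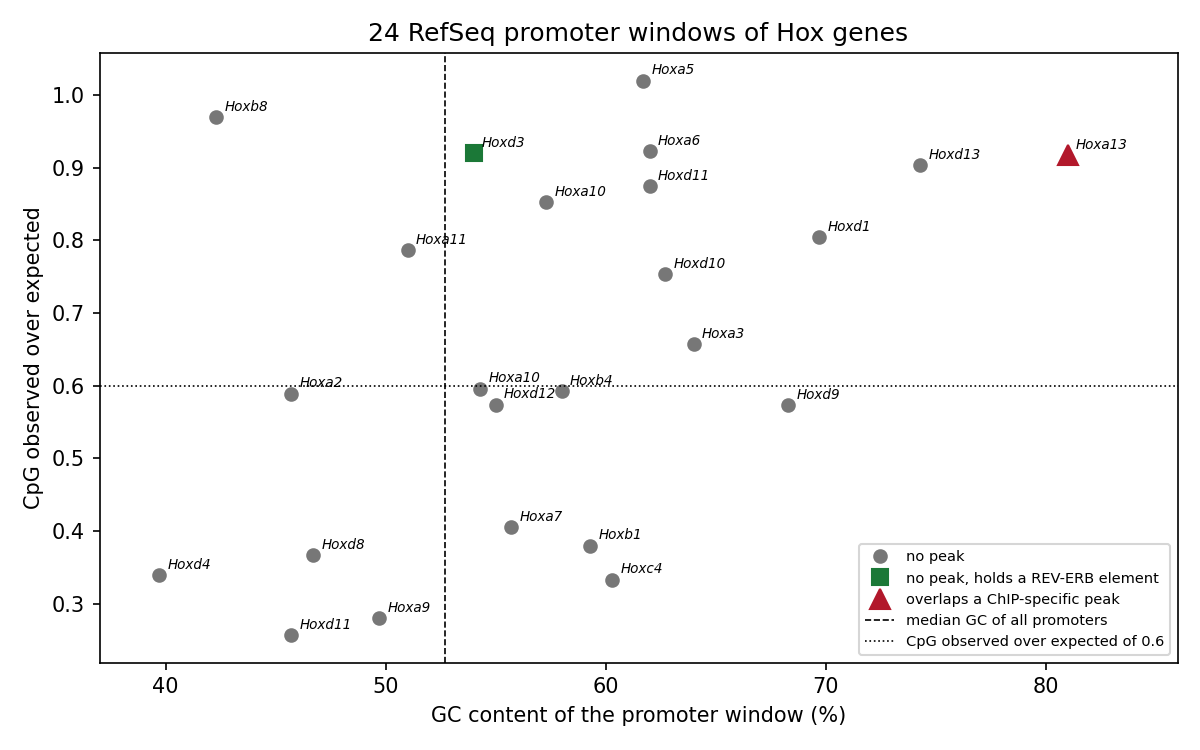
GC content in percent (x axis) against the CpG ratio, observed over expected (y axis), for the 24 RefSeq promoter windows of Hox genes; the dashed line is the median GC content of all windows, 52.7%, and the dotted line a ratio of 0.6. The red triangle, Hoxa13, is farthest right at 81.0%, and the green square, Hoxd3, holds a REV-ERB element and no peak.

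The AGGTCA core motif was in 7 of the 24 Hox windows (29.2%), beside 16.3% of all windows, and GGGTCA in 1 (4.17%), at Hoxa11, beside 13.7%. The longer REV-ERB element, in which AANT stands before AGGTCA, was in 1 Hox window, that of Hoxd3 (4.17%), beside 0.219% of all windows. With GGGTCA in place of AGGTCA the element was in 0 Hox windows and 0.216% of all, and AGGTCA repeated after 2 free bases was in 0 and 0.00913%. The CCAAT box was in 15 of 24 (62.5%), beside 37.4%, and the GC box in 10 (41.7%), beside 35.7%. Both strands were searched, and each longer element contains its core motif. These shares rest on 24 windows of 22 genes, and the element on 1 window. No interval or test was computed for them, so they do not show that Hox promoters hold more or fewer motifs.

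The Hoxd3 window (chr2:74711743-74712042, plus strand, GRCm38.p6) is shown as the Hox promoter with the letters of the element and without a peak. The capitals mark the element, which reads on the minus strand and ends 152 bases before the RefSeq start.
Hoxd3: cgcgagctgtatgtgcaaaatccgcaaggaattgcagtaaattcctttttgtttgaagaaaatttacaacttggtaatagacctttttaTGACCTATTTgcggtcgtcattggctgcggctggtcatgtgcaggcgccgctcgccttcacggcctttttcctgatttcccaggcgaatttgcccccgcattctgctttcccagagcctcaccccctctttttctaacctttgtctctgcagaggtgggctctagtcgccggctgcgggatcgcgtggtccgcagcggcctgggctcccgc
The nearest ChIP peak was 5944 bp away and the nearest IgG peak 5919 bp, both at Hoxd8. Thus the window with the element had no peak, and the only window with a peak had neither core motif. This holds for the windows alone. The promoter ChIP peaks at Hoxd8, Hoxd11 and the inner Hoxa13 site lay outside the nearest window of their gene, by 412, 279 and 232 bp. Those peaks were not searched for motifs, and the Hoxd8 window does hold AGGTCA. A match or its lack describes these letters and not binding.

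The genes that regulate Hox genes or bind DNA with their products were counted in the same way. Of 9 TALE cofactors, the homeodomain partners of Hox proteins, 4 were nearest to a ChIP peak, 2 to an IgG peak and 4 to a ChIP-specific one. These are 44.4%, 22.2% and 44.4%, beside 22.0%, 17.0% and 17.5% of protein-coding genes. The list is short and was chosen with earlier results of these data known. Among them Pbx3 alone had a promoter peak (chr2:34371951-34372374, 425 bp, FDR 0.00880), centred at -118 bp from its start. Pknox2 and Meis2 had 3 ChIP-specific peaks each, and the nearest of these to a start was the one at -3403 bp at Pknox2.

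Of 29 Polycomb genes 10 were nearest to a ChIP peak, 4 to an IgG peak and 8 to a ChIP-specific one (34.5%, 13.8% and 27.6%, beside 22.0%, 17.0% and 17.5% of protein-coding genes). Of the 29, 6 had a promoter peak in the ChIP list, 2 in the IgG list and 4 in the ChIP-specific list. The shares of protein-coding genes were 4.20%, 3.20% and 2.66%. No interval was computed, the background is not matched for CpG content, and this list too was chosen with earlier results known. ChIP-specific promoter peaks were at Cbx8, a reader of the Polycomb histone mark (FDR 0.0129), at Aebp2 and Jarid2, accessory subunits of PRC2 (FDR 0.0163 and 0.0102), and at Rbbp7, a histone-binding subunit (FDR 0.00597). The promoter peaks of Bmi1 and Phc1, subunits of PRC1, lay over IgG peaks. At Bmi1 the FDR was 0.00595 in the ChIP and 0.000281 in the IgG list, and at Phc1 0.0122 and 0.000934. Rybp had a ChIP-specific intron peak 329 bp from its start, and Kdm2b and Mtf2 had such peaks at 2432 and 6647 bp.

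Of 10 trithorax genes, Kdm6a, an X-linked demethylase that removes the Polycomb mark, was the 1 with a peak (beside 22.0% of protein-coding genes in the ChIP list and 17.5% in the ChIP-specific one). It had ChIP-specific peaks 377 and 927 bp downstream of its start (FDR 0.0252 and 0.0179) and a shared intron peak. Of 9 upstream activators of Hox genes, 2 were nearest to a ChIP peak and 2 to an IgG peak (22.2% each, beside 22.0% and 17.0% of protein-coding genes). The retinoic acid receptor gene Rarb was the nearest gene to 10 ChIP peaks and 7 IgG peaks, most of them far from it. The closest ChIP peak was at -24365 bp from a start and the farthest at -369440 bp. The IgG peaks, all intergenic, lay at -119128 to -369440 bp. Gbx2 had an IgG peak in an exon 167 bp from its start and no ChIP peak.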

How the data were processed

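Peaks of an Nr1d1 ChIP (3 libraries) and an IgG mock (1 library) over 1 input were used as the authors deposited them, with libraries grouped by their titles because the antibody label names Nr1d1 on every library, mock and input included. Per the submitters' processing notes, BWA and HOMER were used with the mm10 build; no version is named there, and neither the peak caller nor the handling of replicate libraries is stated in the labels. Each peak has an FDR (a q-value, printed to 6 decimals and under 0.05 throughout) and a length, per the file headers. The score column of the deposited HOMER tables equals the peak length, which steps by 25 bp. Annotated starts are 1 above those of the peak lists, so a printed interval spans 1 bp less than the length. The deposited list without overlap holds the 14471 ChIP peaks that share no base with an IgG peak.

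Peaks were joined to genes by the authors' nearest TSS. RefSeq GRCm38.p6, the same assembly, gave cluster bounds, protein-coding genes (older symbols replaced) and promoter windows of 300 bp; 78.1% of annotated ChIP peaks had a gene found there. Genome density used each chromosome up to its last gene or peak. Wilson intervals (95%, scipy 1.17.1) cover counting only. Overlap code (Python 3.11.15, pandas 2.3.3) was tested on simulated data. The Hox members and regulator lists were chosen with earlier results of these data known. Named regulators were those with a promoter or exon peak within 1 kb of a start and up to 3 more per list. No test was run, as no values per library exist. Alternatives changed the FDR, the overlap, the assignment and the bounds. A few genes of the lists and the cluster map are counted but not reported here by name.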

Additional observations from a re-analysis of the deposited data

How the results depend on the processing

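Of 30 alternatives, 17 gave counts within 1.5 times the reported one or shares within its interval, and the other 13 follow. With an FDR of at most 0.01, the Hox genes nearest to a ChIP peak were 2 in place of 5 and those nearest to a ChIP-specific peak 1 in place of 3 (5.13% and 2.56%, beside 13.0% and 7.66% of protein-coding genes at that FDR), and ChIP, IgG and ChIP-specific peaks inside the clusters were 3, 3 and 1. ChIP-specific promoter peaks were then left at 1 gene, Hoxa13. With an FDR printed as 0, the ChIP, IgG and ChIP-specific lists each had 1 Hox gene (2.56%, beside 3.53%, 5.36% and 0.320%). When any gene whose body or 5 kb flank touched a peak was counted, 9 Hox genes had a ChIP and 7 an IgG peak, since a peak then counts for several packed genes. Their shares, 23.1% and 17.9%, were close to the background of 21.6% and 15.9% and no longer below it. Within 1 kb of a TSS the shares were also not below the background. With bounds moved out by 100 kb, the IgG peaks were 8. When a gap of up to 500 bp counted as shared, Hoxa13 left the ChIP-specific genes, which were 2, and 71.4% of the ChIP peaks in the clusters were shared. On autosomes alone the share of protein-coding genes with a ChIP-specific peak was 16.9% in place of 17.5%. No library could be left out, because the lists cover each antibody as a whole. No paired analysis was possible because no list holds values of single libraries. Depth is unknown, so a gene without a peak is one where none was listed.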

Other observations

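Homeobox genes related to the Hox clusters but outside them had peaks in the lists, none of them at a promoter. Of 5 such genes 4 were nearest to a ChIP peak, 2 to an IgG peak and 3 to a ChIP-specific one (beside 22.0%, 17.0% and 17.5% of protein-coding genes). Gsx2, a ParaHox gene of the developing forebrain, had a shared exon peak 686 bp downstream of its start (chromosome 5, 75076201 to 75076374, FDR 0.0102 in the ChIP list and 0.000281 in the IgG list) and 2 ChIP-specific intergenic peaks. Gsx1 had a ChIP-specific peak at -2509 bp (chromosome 5, 147186001 to 147186374, 375 bp, FDR 0.00503). Pdx1, the pancreas factor, was the nearest gene to one at -11722 bp, upstream of its start. That peak was annotated as intron, which need not be an intron of Pdx1.

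Just outside the clusters, 2 further sites were shared. Evx2, the even-skipped gene beside Hoxd13, had an exon peak in both lists (chromosome 2, 74655651 to 74655999 in the ChIP and 74655751 to 74655974 in the IgG list, FDR 0.0105 and 0.0202), 12226 bp from the HoxD cluster. Beyond Hoxa13, an intergenic site assigned to Gm27866 had an FDR printed as 0 in both lists (chromosome 6, 52274651 to 52274974 and 52274676 to 52274949), 13771 bp from the HoxA cluster. An IgG peak without a ChIP partner lay 48851 bp from HoxD, near Gm22975. With these, the sites in or within 100 kb of HoxD held 0 ChIP-specific peaks. The genome held 5.31 such peaks per Mb, so few would be counted in 96.92 kb and 100 kb on each side.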
